A study of Bos taurus with 6 samples.

Results

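Adhesion G protein coupled receptors were examined in cells sorted from the uterine lining, or endometrium, of cattle (Bos taurus). They were taken as every gene whose symbol is ADGR followed by a subfamily letter (A to G, L or V) and a number, which gave 26 of the 34733 named genes in the files. The 26 comprise ADGRA1 to ADGRA3, ADGRB1 to ADGRB3, ADGRD1, ADGRD2, ADGRE3, ADGRE5, ADGRF1 to ADGRF5, ADGRG1, ADGRG2, ADGRG3, ADGRG5, ADGRG6, ADGRG7, ADGRL1 to ADGRL4 and ADGRV1. ADGRE1, ADGRE2, ADGRE4 and ADGRG4 were not analysed here. The CELSR receptors, which belong to the same class under another name, were kept among the partner genes.

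Receptors of this class carry a long extracellular part with adhesion domains, joined to the membrane-spanning bundle common to G protein coupled receptors. Between them lies a domain in which many members cut themselves during maturation. The short stretch exposed by the cut, held until a ligand or a pull on the outer part frees it, can act as a tethered agonist. Members are known from blood vessel growth and barrier function, from leukocyte adhesion, from muscle and from the formation of synapses and myelin.

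Side population (SP) cells, 3 libraries, were compared with main population (MP) cells, also 3 libraries. Both came from uteri obtained at slaughterhouses in the luteal phase, from collagenase-digested endometrium (given as "intracarrancular") stripped of its luminal epithelium, and dead cells were excluded with propidium iodide. The populations were defined by whether they pump out a Hoechst dye, as SP cells do. Stainings were made with and without verapamil, which blocks dye export. The labels call the source stromal cells, give no antibody gate and do not say how many animals were used or how old they were. The p-values therefore measure the spread between these libraries, which may be in part technical. The columns of all MP libraries, and of no SP library, carry the word micro, so anything it marks cannot be told apart from the population.

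Values are FPKM, fragments per kilobase of transcript per 1e+06 mapped fragments, which allows levels of different genes to be set side by side. The files give no counts. Relative to SP replicate 1, depth read from the steps of the lowest values was 1.605 and 1.83 times as large in SP replicates 2 and 3, and 2.32, 3.22 and 2.00 times as large in MP replicates 1 to 3. A 0 in SP replicate 1 is thus the least informative. The dye exporters ABCB1 and ABCG2 together held 250, 152 and 144 FPKM in SP and 20.9, 28.2 and 88.7 FPKM in MP. ABCB1 did not overlap, at 54.1 to 111 FPKM in SP and 3.76 to 16.8 FPKM in MP. ABCG2 overlapped, at 66.1 to 138 FPKM in SP and 17.1 to 71.8 FPKM in MP. Marker genes summed over lists gave 1937 to 3081 FPKM in SP and 210 to 1177 FPKM in MP for 17 endothelial markers. They gave 279 to 465 FPKM in SP and 2864 to 10956 FPKM in MP for 8 fibroblast markers, and 112 to 142 FPKM in SP and 471 to 921 FPKM in MP for 12 myeloid markers. The myeloid sum in SP was nearly all CD14 and CD68, which overlapped between the groups, while the other 10 were lower in every SP library than in any MP library. Epithelial markers (8 genes) were present in both, at 167 to 1586 FPKM in SP and 897 to 4031 FPKM in MP. Fibroblast markers exceeded endothelial markers in every MP library, with DCN alone at 6200, 3815 and 1635 FPKM in MP replicates 1 to 3. In every SP library endothelial markers exceeded fibroblast markers. Both populations held markers of several cell types under the label stromal. MP replicate 3 had the highest endothelial sum and the lowest fibroblast sum of the MP libraries.

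SP cells held more adhesion receptor transcript than MP cells. Summed over the 26 genes the level was 518, 333 and 377 FPKM in SP replicates 1 to 3 and 103, 122 and 241 FPKM in MP replicates 1 to 3, so the groups did not overlap. Most of it was ADGRG1, a receptor for collagen III and transglutaminase 2 with known roles in brain development and cytotoxic lymphocytes. It made up 60.8%, 64.7% and 68.5% of the sum in SP and 18.1%, 46.1% and 66.7% in MP. MP replicate 1 had the most even make-up, with ADGRA2 at 22.0%, ADGRD1 at 19.3% and ADGRE5 at 12.9% of its sum.

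**Figure D1:**
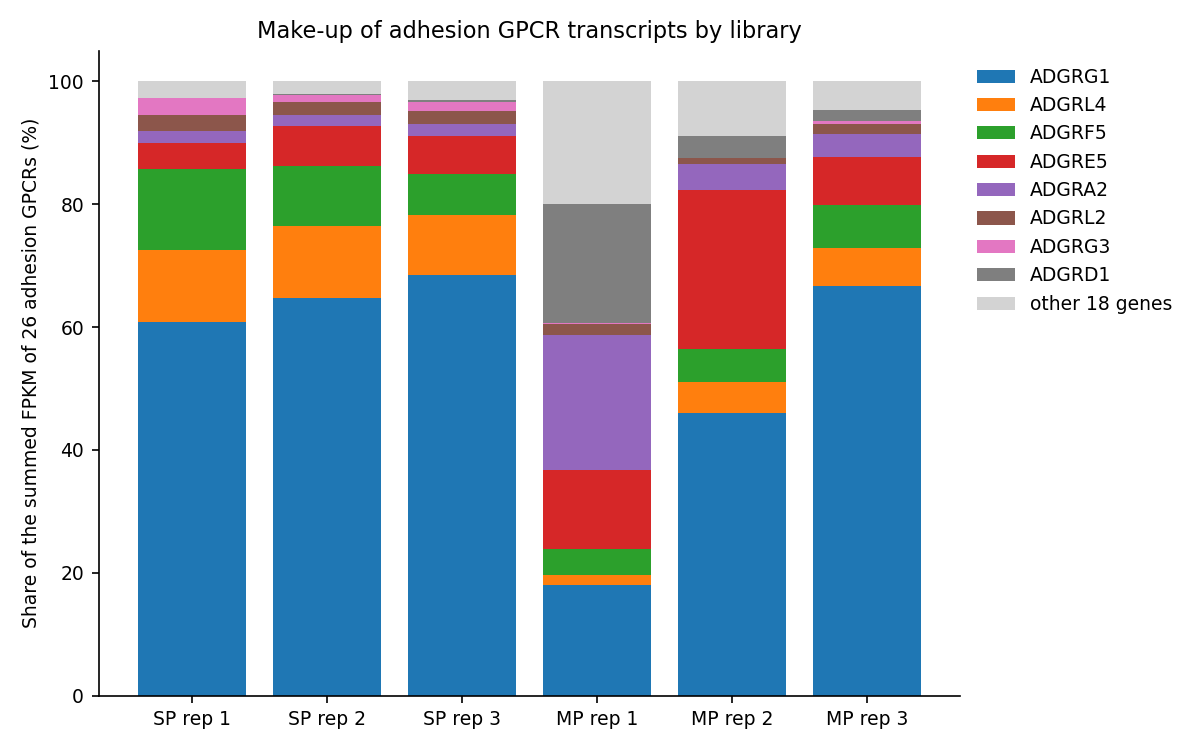
Share of the summed FPKM of the 26 adhesion receptors (vertical axis, percent) held by each gene in each library, with 18 low genes pooled in light grey. ADGRG1 holds 60.8% to 68.5% in SP and 18.1% to 66.7% in MP, and MP replicate 1 differs most from the other libraries.

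Of the 26 receptors 12 reached 1 FPKM in at least 3 of the 6 libraries and were tested with limma on log2(FPKM + 1), among 12127 tested genes. ADGRL4, ADGRF5, ADGRL2, ADGRG1, ADGRG3 and ADGRF2 rose in SP. ADGRD1 and ADGRB2 fell, and ADGRA2, ADGRA3, ADGRE5 and ADGRL1 did not pass at an adjusted p of 0.05. Thus 6 of 12 were called higher, where 20.5% of all tested genes were, and 2 of 12 lower, where 18.7% were, together 8 of 12 against 39.2%. For the same 8 receptors the SP and MP values did not overlap, which held for 54.8% of all tested genes. The median log2 fold change was 0.81 over the 12 receptors and 0.01 over all tested genes. No receptor lay near 0.81, which falls in the gap between ADGRE5 at 0.13 and ADGRF2 at 1.49. ADGRB2 was under 1 FPKM in every SP library, so the filter fixed its direction. ADGRD1, ADGRF2 and ADGRG3 also met the filter by the group where they were higher, as most values of the other group were under 1 FPKM. These calls are thus not free of the filter when set against the shares of all tested genes. With 3 libraries a group, a two-sided exact permutation test cannot go below p = 0.1, and each of the 8 genes reached that value. Without SP replicate 1 or MP replicate 2 the test called 5 receptors, without SP replicate 3 or MP replicate 1 it called 6, and without SP replicate 2 it called 7. Fitted with no filter, 4.11% of 34733 genes passed, and of the 26 receptors only ADGRG5 and ADGRV1, both under 1 FPKM, were called. Fewer cells of a type and less RNA per cell cannot be told apart in such bulk samples.

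**Figure D2:**
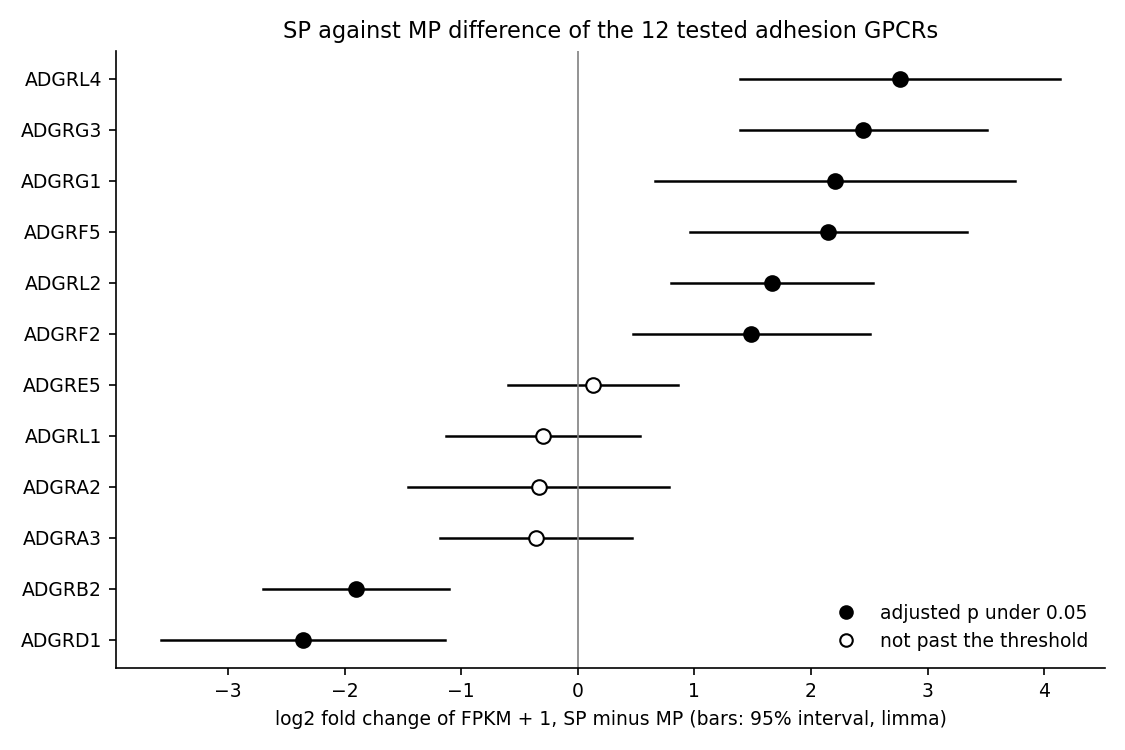
Log2 fold change of FPKM + 1, SP minus MP (horizontal axis), for the 12 tested receptors, with 95% intervals from limma. Filled points passed an adjusted p of 0.05: 6 lie to the right of 0 and 2 to the left, while the intervals of the 4 open points span 0.

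ADGRL4, ADGRF5 and ADGRL2, which rose, are known from endothelial cells. ADGRL4 (chromosome 3, 65667452 to 65808369, build ARS-UCD1.2), a receptor of vessel endothelium linked to angiogenesis, was at 61.3, 39.1 and 36.7 FPKM in SP, against 1.68, 6.01 and 15.05 FPKM in MP (replicates 1 to 3 in order). Every SP value lay above every MP value, and MP replicate 3 came nearest to SP. SP averaged 45.7 ± 13.6 FPKM and MP 7.58 ± 6.82 FPKM (SD, n = 3 each), with a log2 difference of 2.76 (limma adjusted p = 0.011, SE 0.59). ADGRF5 (chromosome 23, 20061552 to 20174710), known for surfactant control in the lung and for expression in capillaries, was at 68.1, 33.0 and 25.5 FPKM in SP, against 4.25, 6.69 and 16.7 FPKM in MP. SP replicate 1 was the highest and MP replicate 3 again the nearest to SP. Its log2 fold change was 2.15 (limma adjusted p = 0.0158, SE 0.51). The call was lost without SP replicate 1, with an adjusted p of 0.0515, and without MP replicate 2, with 0.0501 (limma).

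ADGRL2 (chromosome 3, 62437260 to 63147752), a latrophilin that binds teneurins and FLRT proteins at synapses and is also found in endothelium, was at 12.9, 7.12 and 7.87 FPKM in SP, against 1.91, 1.11 and 4.08 FPKM in MP. The groups did not overlap, and its log2 fold change was 1.67 (limma adjusted p = 0.0129, SE 0.37). In SP the other latrophilins, ADGRL1 and ADGRL3, had lower levels than ADGRL2. ADGRL1 was at 2.85, 1.58 and 2.35 FPKM in SP, against 5.30, 1.49 and 2.98 FPKM in MP, with overlapping groups and a 95% interval of the log2 difference from −1.13 to 0.53. ADGRL3 stayed under 1 FPKM in all libraries, at 0.196 to 0.829 FPKM in SP and 0.379 to 0.973 FPKM in MP. The difference in response between ADGRL2 and ADGRL1 was not itself tested.

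**Figure D3:**
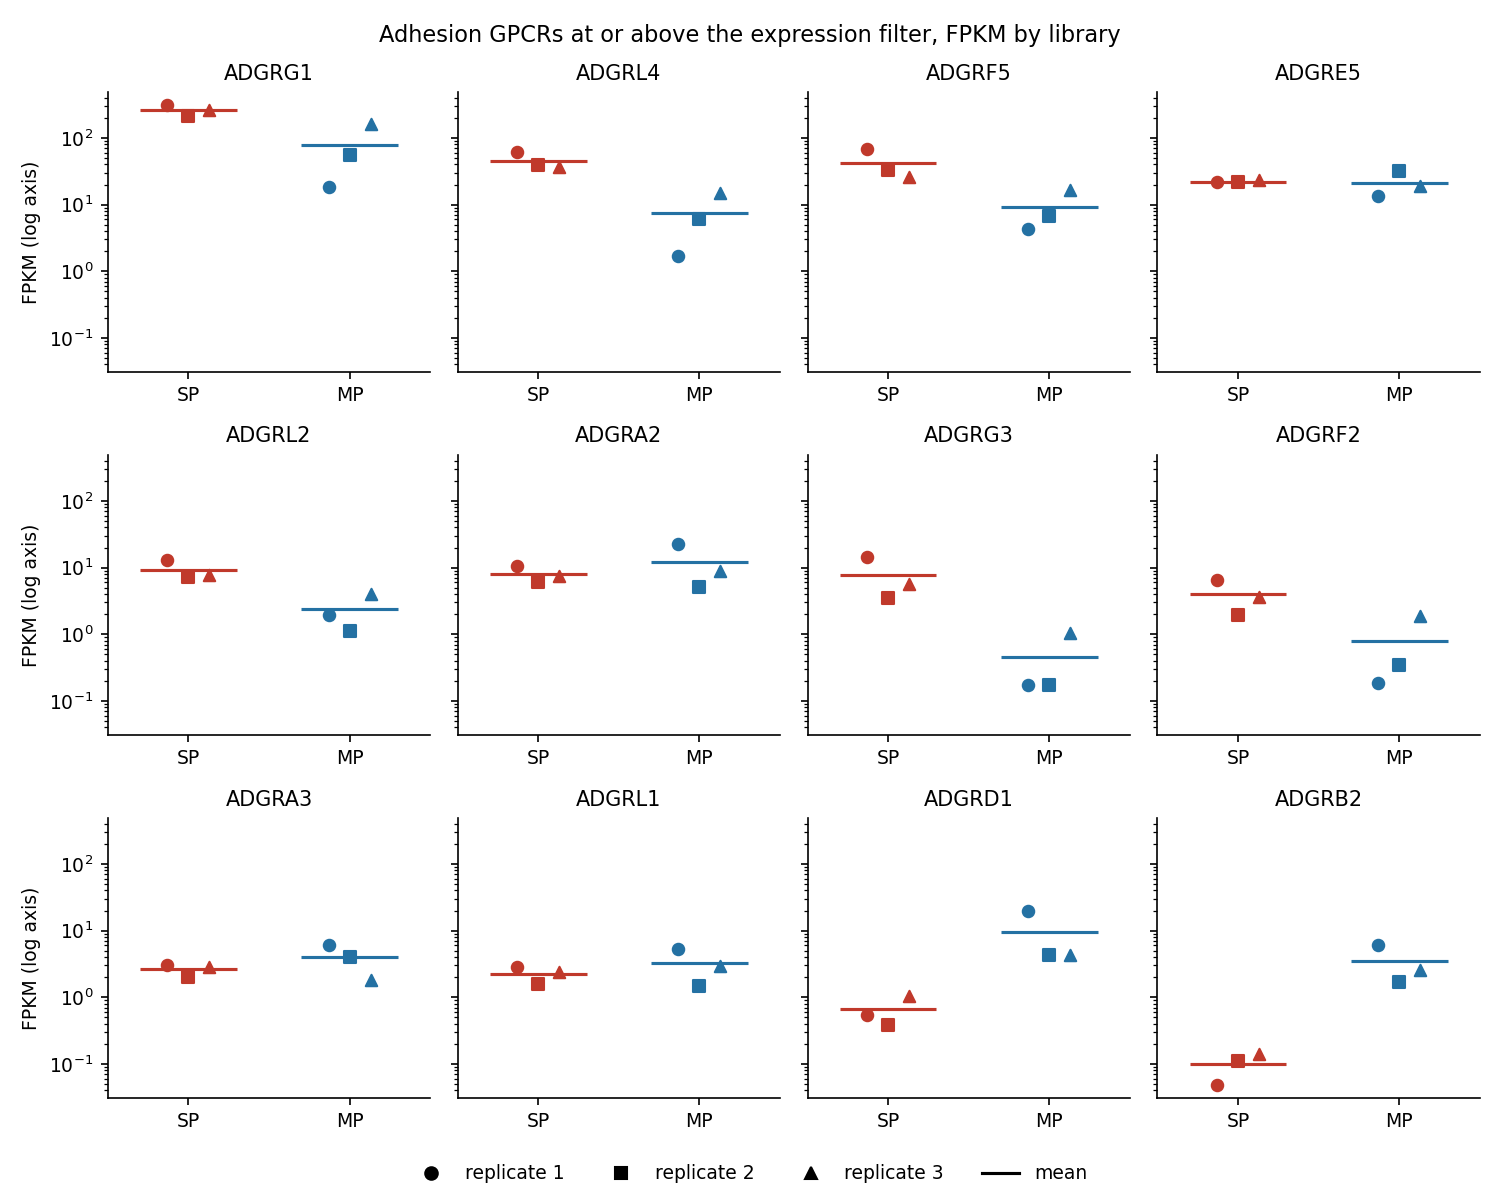
FPKM (log axis) of the 12 tested receptors in each SP and MP library, with symbols for the replicate number and a line at the group mean. ADGRL4, ADGRF5, ADGRL2, ADGRG1, ADGRG3 and ADGRF2 lie higher in every SP library than in any MP library, and ADGRD1 and ADGRB2 lie lower.

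The subfamily G genes ADGRG5, ADGRG1 and ADGRG3 follow one another on chromosome 18, with no other listed gene between them. ADGRG1 (25595290 to 25641532) was the highest of the 26 receptors in both populations by mean, at 315, 216 and 258 FPKM in SP, against 18.7, 56.1 and 161 FPKM in MP. The MP values spread widely, and MP replicate 3 lay closer to SP than to the other MP libraries. SP averaged 263 ± 49.7 FPKM and MP 78.5 ± 73.6 FPKM (SD, n = 3 each), with a log2 difference of 2.20 (limma adjusted p = 0.0341, SE 0.67). Leaving out SP replicate 1, 2 or 3 ended this call (limma adjusted p = 0.0981, 0.0664 and 0.0818), as did leaving out MP replicate 1 or 2 (0.0581 and 0.0815). Without MP replicate 1 the log2 fold change was also smaller, at 1.44. Markers of T and NK cells, in which ADGRG1 is known, summed to 0.611, 0.852 and 3.97 FPKM in SP and 83.0, 231 and 263 FPKM in MP, replicates 1 to 3. They were thus lower in every SP library, while within MP the library order of the sums was that of ADGRG1. That order was not particular to them, as endothelial and myeloid marker sums followed it within MP and fibroblast sums ran in reverse. The part of T and NK cells in the ADGRG1 values was not tested.

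ADGRG3 (25644867 to 25674908), which starts 3334 bases after ADGRG1 ends and is known from granulocytes and lymphatic endothelium, was at 14.3, 3.55 and 5.60 FPKM in SP, against 0.175, 0.175 and 1.04 FPKM in MP. The groups were well apart, with SP replicate 1 highest. Its log2 fold change was 2.45 (limma adjusted p = 0.00708, SE 0.46) and grew to 3.92 with a pseudocount of 0.1 FPKM in place of 1. Neutrophil markers (3 genes found) summed to 0 to 1.39 FPKM in SP and 1.84 to 9.75 FPKM in MP. The 4 lymphatic markers did not move together, and of the 2 tested, LYVE1 and PDPN, neither passed. LYVE1 was at 82.1, 4.25 and 34.2 FPKM in SP and 6.24, 1.68 and 15.4 FPKM in MP, and PDPN at 0.230 to 6.64 FPKM in SP and 3.45 to 20.0 FPKM in MP. FLT4 was at 0.611 to 1.47 FPKM in SP and 0.0932 to 0.474 FPKM in MP, without overlap, and PROX1, which defines that lineage, at 0.229 to 0.582 FPKM in SP and 0.0929 to 0.487 FPKM in MP. Their part in the result was not tested. ADGRG5 (25526936 to 25553747), a receptor of leukocytes, lay on the other side of ADGRG1 at very low levels. It was listed at 0 in SP replicates 1 and 2 and stood at 0.0323 FPKM in SP replicate 3, against 0.180, 0.148 and 0.133 FPKM in MP.

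ADGRF5, ADGRF1, ADGRF2 and ADGRF4 form a second group of neighbours, on chromosome 23. ADGRF2 (20706704 to 20742210), a receptor with little known of its function, was at 6.46, 1.96 and 3.596 FPKM in SP, against 0.184, 0.347 and 1.87 FPKM in MP. The lowest SP value and the highest MP value nearly met. Its log2 fold change was 1.49 (limma adjusted p = 0.0314, SE 0.44), 2.55 with a pseudocount of 0.1 FPKM. The call was lost without SP replicate 1 or 3 (limma adjusted p = 0.0933 and 0.0764) and without MP replicate 1 or 2 (0.0941 and 0.092). ADGRF4, which starts 734 bases after ADGRF2 ends and is known from enamel formation in mouse, was at 0.423, 0.324 and 0.812 FPKM in SP and 0.140, 0.514 and 0.389 FPKM in MP, with overlapping groups. ADGRF1, between ADGRF5 and ADGRF2 on the chromosome, did not exceed 0.0539 FPKM in SP or 0.0232 FPKM in MP. By mean, ADGRF5 was the highest and ADGRF1 the lowest of the subfamily F genes in both populations.

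Endothelial markers moved with these 6 receptors: 16 of 17 rose and none fell, with a median log2 fold change of 2.29, and none was listed at 0 in a whole group. Of all tested genes 20.5% were called higher. The exception, CLDN5, overlapped and had the lower mean in SP, at 28.2 FPKM against 45.5 FPKM in MP. The 17 markers summed to 3081, 2284 and 1937 FPKM in SP and 210, 384 and 1177 FPKM in MP. Their part in the receptors' values was not tested. As a description, the receptors were set against the marker sum of their own library. Per 1000 FPKM of endothelial markers ADGRG1 was at 102, 94.3 and 133 FPKM in SP and 88.9, 146 and 137 FPKM in MP. ADGRF5 was at 22.1, 14.4 and 13.2 in SP and 20.3, 17.4 and 14.2 in MP on the same scale. Both overlapped between the populations, as did ADGRL2 (3.12 to 4.19 in SP and 2.88 to 9.12 in MP) and ADGRF2 (0.858 to 2.095 in SP and 0.875 to 1.59 in MP).

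ADGRL4 and ADGRG3 did not overlap on that scale. ADGRL4 was at 19.9, 17.1 and 19.0 FPKM per 1000 FPKM of endothelial markers in SP, against 8.01, 15.7 and 12.8 in MP. ADGRG3 was at 4.63, 1.55 and 2.89 in SP, against 0.833, 0.457 and 0.881 in MP. For ADGRL4 the gap was narrow, with a lowest SP value of 17.1 and a highest MP value of 15.7. The receptors set on this scale were those already called higher in SP. Their lack of overlap was not set against that of all genes on the same scale. These ratios rest on 1 list of markers and were given no test. Whether ADGRL4 or ADGRG3 was higher in SP beyond the endothelial content of the libraries was thus not tested.

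**Figure D4:**
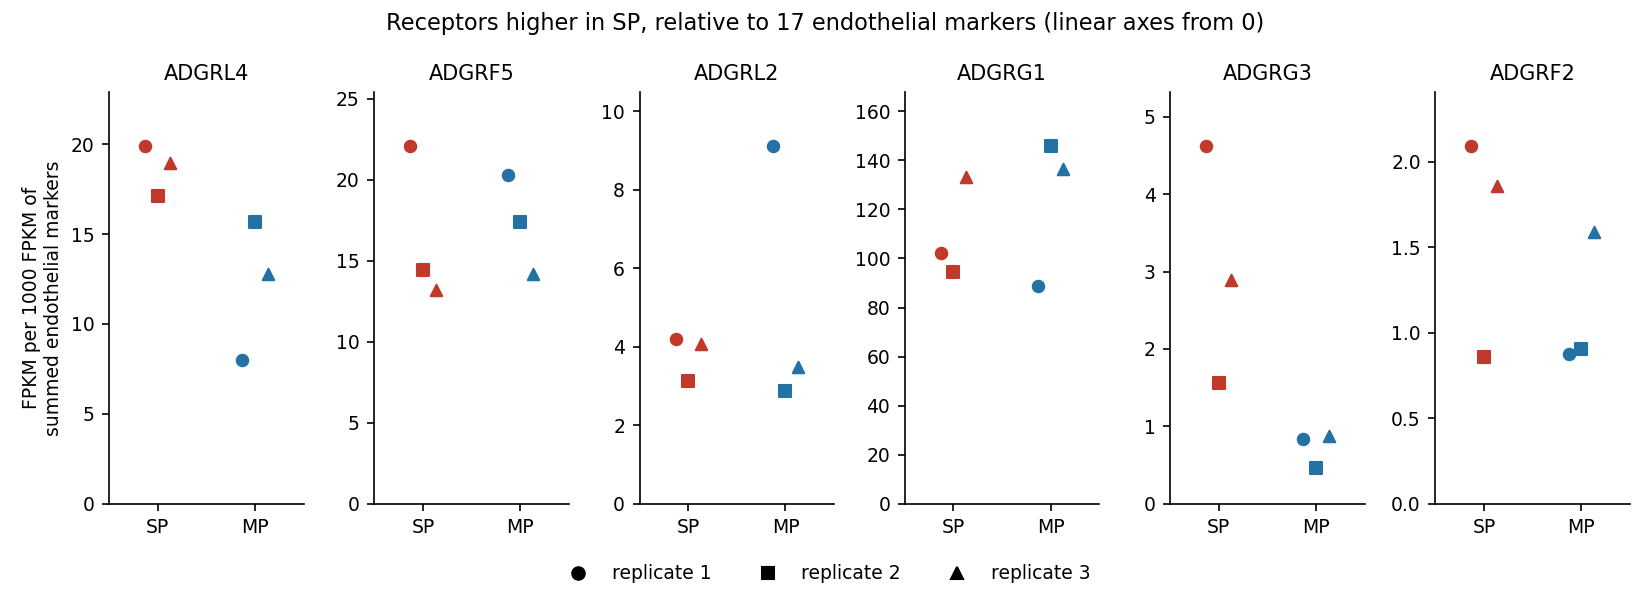
FPKM of the 6 receptors that rose in SP, per 1000 FPKM of the 17 summed endothelial markers of the same library (linear axes from 0, a point per library). ADGRL4 and ADGRG3 lie higher in all SP than in all MP libraries, while ADGRF5, ADGRL2, ADGRG1 and ADGRF2 overlap.

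The receptors that fell are ADGRD1 and ADGRB2. ADGRD1 (chromosome 17, 46030147 to 46205769), which couples to the stimulatory G protein, was at 0.549, 0.387 and 1.05 FPKM in SP, against 20.0, 4.36 and 4.26 FPKM in MP. The groups did not overlap, and MP replicate 1 stood far above the others. SP averaged 0.664 ± 0.348 FPKM and MP 9.53 ± 9.03 FPKM (SD, n = 3 each), with a log2 difference of −2.35 (limma adjusted p = 0.0126, SE 0.53). ADGRB2 (chromosome 2, 121953149 to 121990029), described mainly in brain, was at 0.0483, 0.111 and 0.140 FPKM in SP, against 6.07, 1.71 and 2.60 FPKM in MP. Its log2 fold change was −1.90 (limma adjusted p = 0.00654, SE 0.34) and −3.99 with a pseudocount of 0.1 FPKM.

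MP replicate 1 was the highest library for ADGRD1 and for ADGRB2, and it also had the highest fibroblast and the highest pericyte and smooth muscle marker sums. Fibroblast markers fell in 7 of 8 and summed to 335, 279 and 465 FPKM in SP and 10956, 5005 and 2864 FPKM in MP. Of the 9 pericyte and smooth muscle markers tested 5 fell, where 18.7% of all tested genes were called lower. The other 4, MYH11, NOTCH3, RGS5 and MCAM, overlapped and did not pass. MCAM had the higher mean in SP, at 89.3 FPKM against 40.6 FPKM in MP. The list summed to 337, 421 and 537 FPKM in SP and 1969, 1189 and 1316 FPKM in MP. Per 1000 FPKM of fibroblast markers ADGRD1 was at 1.64, 1.39 and 2.27 FPKM in SP and 1.82, 0.872 and 1.49 FPKM in MP, so the populations overlapped. Per 1000 FPKM of pericyte and smooth muscle markers it was at 1.63, 0.920 and 1.96 FPKM in SP, against 10.1, 3.67 and 3.23 FPKM in MP, with no overlap. ADGRB2 gave the same picture, with 0.144 to 0.399 FPKM in SP and 0.342 to 0.909 FPKM in MP per 1000 FPKM of fibroblast markers. Against pericyte and smooth muscle markers it was at 0.143 to 0.265 in SP and 1.44 to 3.08 in MP, again without overlap. The lack of overlap on the pericyte and smooth muscle scale was not set against that of all genes on the same scale. The part of these cell types in the values of ADGRD1 and ADGRB2 was not tested.

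ADGRE5, ADGRA2, ADGRA3 and ADGRL1 did not pass, and all 4 had overlapping groups. ADGRE5 (chromosome 7, 11344663 to 11371529), the leukocyte antigen CD97, which binds CD55 and THY1, was at 21.5, 21.6 and 23.1 FPKM in SP, against 13.3, 31.5 and 19.0 FPKM in MP. The SP values were close together and lay within the range of MP. The 95% interval of its log2 difference ran from −0.60 to 0.86. ADGRE5 shares its listed locus with DDX39A, which stood at 131 to 314 FPKM in SP and 58.7 to 121 FPKM in MP, so the split of reads between them is uncertain.

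ADGRA2 (chromosome 27, 33070267 to 33111356), which works with RECK as a receptor for WNT7A and WNT7B in brain vessels, was at 10.6, 6.01 and 7.56 FPKM in SP, against 22.7, 5.06 and 8.78 FPKM in MP. MP replicate 1 alone stood above all SP values, and the 95% interval ran from −1.46 to 0.78. Without that library the sign turned, to 0.20, still far from the threshold (limma adjusted p = 0.665). ADGRA2 shares its listed locus with BRF2, at 9.31 to 24.0 FPKM in SP and 5.27 to 7.77 FPKM in MP. ADGRA3 was at 3.10, 2.02 and 2.87 FPKM in SP, against 6.16, 4.02 and 1.80 FPKM in MP, with a 95% interval from −1.18 to 0.47.

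The other 14 receptors never reached 1 FPKM and were not tested. Together they held 1.26, 1.38 and 2.61 FPKM in SP and 2.94, 3.16 and 2.09 FPKM in MP. Their means were higher in MP for 9 genes and higher in SP for 4, and ADGRG7, a receptor known from intestine, was listed at 0 in all 6 libraries. The values did not overlap for ADGRB3, ADGRG5 and ADGRV1. Neither the counts of means nor this lack of overlap was set against all genes that missed the filter. ADGRB3, which binds C1QL proteins at synapses, was listed at 0 in SP replicates 1 and 3 and was at 0.0211 FPKM in SP replicate 2, against 0.499, 0.417 and 0.186 FPKM in MP. ADGRB3 shares its listed locus with LOC107132748, which stood higher, at 1.22 to 2.85 FPKM in SP and 1.17 to 1.55 FPKM in MP, so the split of reads is uncertain here too. ADGRV1, the very large receptor of hair cells and photoreceptors, ran the other way at 0.249, 0.285 and 0.213 FPKM in SP, against 0.0291, 0.0275 and 0.104 FPKM in MP.

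The remaining low receptors overlapped between the populations. ADGRG6, needed for myelination by Schwann cells, was at 0.319, 0.243 and 0.340 FPKM in SP and 0.128, 0.377 and 0.563 FPKM in MP. ADGRA1 was at 0 to 0.149 FPKM in SP and 0.0248 to 0.702 FPKM in MP, and ADGRE3, a myeloid receptor, at 0 to 0.0459 FPKM in SP and 0.0132 to 0.665 FPKM in MP. MP replicate 1 was the highest for both. ADGRB1, which binds phosphatidylserine on dying cells, was at 0 to 0.0648 FPKM in SP and 0.0605 to 0.185 FPKM in MP. ADGRD2, ADGRF1, ADGRF3 and ADGRG2 did not exceed 0.0617 FPKM in SP or 0.116 FPKM in MP. With no counts in the files, the counting error of values this low is unknown.

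**Figure D5:**
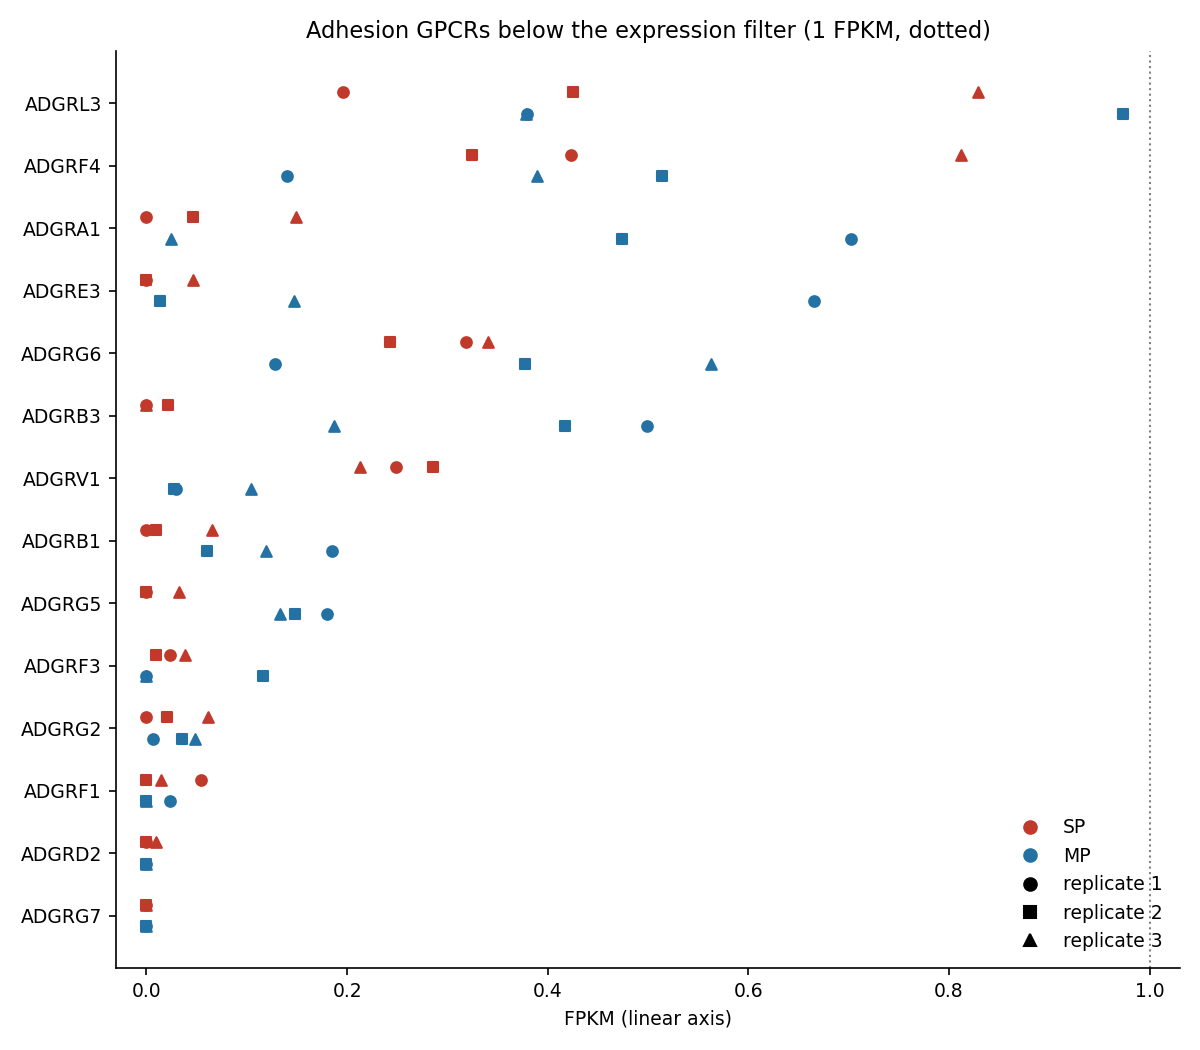
FPKM (linear axis) of the 14 receptors that stayed below the 1 FPKM filter (dotted line), with SP libraries above MP libraries in each row and symbols for the replicate number. ADGRV1 is higher in all SP libraries, ADGRB3 and ADGRG5 are higher in all MP libraries, and the others overlap or are at 0.

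Genes listed as ligands and partners, the CELSR receptors among them, moved in both directions. Of 29 listed ligands and partners 15 were tested, 5 rose, 5 fell and 5 did not pass, with a median log2 fold change of −0.16. Of all tested genes 20.5% were called higher and 18.7% lower. The basement membrane genes LAMB2, COL4A1 and COL4A2 rose by 1.46, 1.56 and 1.51 in log2 units (limma adjusted p = 0.00977, 0.0445 and 0.0472, SE 0.30, 0.51 and 0.50). Collagen IV is a ligand of ADGRG6, which itself stayed under 1 FPKM. CD55, a ligand of ADGRE5, was at 50.9, 113 and 81.7 FPKM in SP, against 9.29, 39.1 and 28.04 FPKM in MP, a log2 difference of 1.79 (limma adjusted p = 0.0309, SE 0.52). THY1, another ligand of ADGRE5, went the other way at 7.33, 9.14 and 19.2 FPKM in SP, against 372, 274 and 218 FPKM in MP, a log2 difference of −4.56 (limma adjusted p = 0.000658, SE 0.37). CELSR1, itself an adhesion receptor, known from planar cell polarity, rose by 0.69 (limma adjusted p = 0.0489, SE 0.24). For CELSR1 and LAMB2 no partner among the receptors is named here, so the counts are of listed genes and not of known pairs.

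COL3A1, a ligand of ADGRG1 and also one of the 8 fibroblast markers, was at 30.9, 21.2 and 55.7 FPKM in SP, against 1309, 195 and 308 FPKM in MP, a log2 difference of −3.65 (limma adjusted p = 0.00709, SE 0.68). SP, where the receptor transcript was higher, thus held less transcript of this ligand, and the collagen protein was not measured. The other ligand, TGM2, overlapped at 215, 105 and 94.7 FPKM in SP and 356, 72.3 and 115 FPKM in MP. FLRT2 and TENM3, ligands of latrophilins, had log2 fold changes of −3.04 and −0.96 (limma adjusted p = 0.0024 and 0.015, SE 0.38 and 0.23), and LAMA2, a laminin chain and part of another ADGRG6 ligand, −2.35 (limma adjusted p = 0.00698, SE 0.44). TENM3 was under 1 FPKM in every SP library, so the filter fixed its direction. With any one library left out, 1 to 3 of the partner genes were called higher and 4 to 6 lower, and with a pseudocount of 0.1 FPKM 3 were called higher and 5 lower.

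Of the G protein and effector genes, 19 rows were tested, 7 rose, 2 fell and 10 did not pass (median log2 fold change 0.75). Of all tested genes 20.5% were called higher and 18.7% lower, with a median log2 fold change of 0.01. In either direction 9 of the 19 were called, which is near the 39.2% of all tested genes. The difference between the directions was not tested. GNAQ, the alpha subunit that activates phospholipase C, was at 25.9, 31.0 and 16.2 FPKM in SP, against 1.23, 2.29 and 6.503 FPKM in MP, a log2 difference of 2.69 (limma adjusted p = 0.00567, SE 0.46). Its close relative GNA11 rose by 1.42 (limma adjusted p = 0.0117, SE 0.31). ELMO1 and DOCK1, partners in Rac activation that act below ADGRB1 in engulfment, rose by 1.81 and 0.80 (limma adjusted p = 0.0217 and 0.0223, SE 0.48 and 0.21), although ADGRB1 itself was near 0. ARRB2, an arrestin, and GNAI1, an inhibitory alpha subunit, had log2 fold changes of −1.28 and −1.64 (limma adjusted p = 0.00619 and 0.0121, SE 0.23 and 0.36). ARRB1, the other arrestin listed, rose by 0.98 (limma adjusted p = 0.0408, SE 0.31). GNAS was at 994, 800 and 670 FPKM in SP and 692, 535 and 615 FPKM in MP, with overlapping groups. The count of effector genes called higher was 3 without SP replicate 1 or MP replicate 2 and 4 without SP replicate 2, and it was 13 when each library was rescaled to a sum of 1e+06.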

How the data were processed

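RNA of SP and MP cells was measured in 3 libraries each, grouped by the sample titles. Per the labels' protocols, stranded mRNA libraries were made from RNA of sorted cells and converted for MGI sequencing. Per the submitters' processing notes, cutadapt 2.5, HISAT2 2.1.0 and build ARS-UCD1.2 were used. The deposited values are FPKM per gene, per the file headers, while the program behind them, the annotation version and any use of strand were not given in the sources used here. A change in one abundant transcript shifts the FPKM of the rest. One row that pools 662 symbols, none of them an adhesion receptor, was left out. Genes at 1 FPKM or more in at least 3 libraries were tested by limma 3.58.1 (R 4.3.3) after a log2(FPKM + 1) transformation (two-sided, trend, Benjamini-Hochberg over 12127 genes, threshold 0.05). Fold changes on this scale understate low genes. Starts in the files count from 0 and were raised by 1. All 26 symbols matched the RefSeq gene table of ARS-UCD2.0, used for names only. Relative depth and the fit were tested on simulated data. The receptors and gene lists were chosen with earlier results of these data known. Of the partner and effector lists, at most 6 called genes per direction, by smallest p, were to be named. Some of these effector genes are not reported here. TGM2, GNAS, ARRB1 and the single marker genes, and the values by library of receptors under 1 FPKM, were added after they were seen. Alternatives covered the pseudocount, filter, scaling, variance model, libraries left out and a replicate block.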

Additional observations from a re-analysis of the deposited data

How the results depend on the processing

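The 6 receptors called higher and the 2 called lower were the same genes with pseudocounts of 0.1 and 0.5 FPKM, a filter of 0.5 FPKM, 3 other scalings, no variance trend, the replicate block and without MP replicate 3. With no filter on low values 1428 genes were called (4.11% of 34733) and 2 receptors, ADGRG5 and ADGRV1, the 8 others not passing. In that fit the median of all 26 receptors was −0.012, the partner calls were 2 and the effector calls 3. At a mean of at least 5 FPKM only 7 receptors were tested, 5 were called and the median was 1.67. With one library, or one replicate number in both groups, left out, the calls ranged from 1065 to 4938 over all genes, from 2 to 8 for the receptors, from 3 to 8 for the partners and from 0 to 10 for the effectors. ADGRB2 and ADGRG3 were called in each of these fits. All of the fits kept the filter set on the 6 libraries, which fixed the direction of ADGRB2. Without MP replicate 3 the remaining MP values of ADGRG3, 0.175 and 0.175 FPKM, were also both under 1 FPKM. Without SP replicate 3 the same held for the SP values of ADGRD1, 0.549 and 0.387 FPKM. In those fits these genes thus stayed in by way of the group where they were higher. The effector calls were 15 after rescaling to a sum of 1e+06, where the median of all genes moved to 0.20 and 68.1% of all calls were higher in SP, against 52.3% as deposited. Whether same-numbered SP and MP libraries came from the same animal is not stated in the labels, and the numbers were not treated as pairs. Deviations of same-numbered SP and MP libraries correlated at 0.105, 0.533 and −0.085, and SP replicate 1 correlated best with MP replicate 3, at 0.279. With the replicate block 4793 genes, 8 receptors, 9 partners and 10 effectors were called. Depth limits the 14 receptors under 1 FPKM.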
